A study of Mus musculus with 3 samples.

Results

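The 9 genes described here encode myeloid C-type lectin receptors, surface proteins by which phagocytes bind sugars, glycolipids and products of dying cells. They were chosen by name, as the rows of the deposited tables for Clec4d, Clec4e, Clec5a, Clec12a, Clec7a, Clec4a2, Clec4n, Clec10a and Mgl2, and all 9 were found among 11419 listed genes. The libraries came from 1 sorted population of leg bone marrow, taken from mice of the inbred strain C57BL/6. Cells were taken that carried CD11b, F4/80 and CD169 on their surface and lacked CX3CR1, and the labels call them macrophages. No treatment, mutation, age or second population was given in the labels, so 3 libraries of the same kind (replicates 1, 2 and 3) stand without a control. The labels did not say whether each library was from its own mouse. Every p-value therefore reflects only these 3 libraries, and the spread among them may be technical.

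C-type lectin receptors fall into activating and inhibitory kinds. Activating ones bear or borrow a tyrosine motif that recruits the kinase SYK, which acts through the CARD9, BCL10 and MALT1 complex on NF-kB, and several depend for this on the adaptor chains FcRγ (gene Fcer1g) or DAP12 (gene Tyrobp). Inhibitory ones carry a motif that recruits the phosphatases SHP-1 and SHP-2 (genes Ptpn6 and Ptpn11). The receptors are placed here in 3 classes, which are a working division, since several are carried by more than one kind of cell. The neutrophil-type class held Clec4d (MCL), Clec4e (Mincle), Clec5a (MDL-1) and Clec12a (MICL), which neutrophils carry, although Clec4d and Clec4e were named from macrophages and are also induced there. Clec7a (Dectin-1) and Clec4a2 (DCIR), found on neutrophils and macrophages alike, were put in neither class. The macrophage-type class held Clec4n (Dectin-2), Clec10a (MGL1) and Mgl2, known mainly from macrophages, monocytes and dendritic cells.

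Of the 9 members, 7 had a promoter window in RefSeq's GRCm38.p6 annotation, running from 250 bases before the start of transcription to 50 after it. The other members are Clec4n and Clec10a. The window of Clec12a, the highest member, is shown with those of Clec4d and Clec4e, which lie next to each other in the genome, and of Mgl2, the highest of the macrophage-type class. Capitals mark matches on either strand to AGGAAGT (a PU.1 motif, for an ETS factor of myeloid cells), TTGCNNAA (a C/EBP motif, for a factor family of granulocytes) or TATAAA (the TATA box), where N is any base, and no matches of different motifs overlapped in these windows.
Clec12a, chr6:129349994-129350293, plus strand: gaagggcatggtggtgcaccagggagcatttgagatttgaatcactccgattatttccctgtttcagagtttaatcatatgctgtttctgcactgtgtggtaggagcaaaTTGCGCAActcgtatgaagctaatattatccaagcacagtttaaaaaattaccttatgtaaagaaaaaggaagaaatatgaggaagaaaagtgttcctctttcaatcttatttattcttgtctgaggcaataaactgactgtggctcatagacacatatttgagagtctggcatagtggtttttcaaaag
Clec4d, chr6:123261857-123262156, plus strand: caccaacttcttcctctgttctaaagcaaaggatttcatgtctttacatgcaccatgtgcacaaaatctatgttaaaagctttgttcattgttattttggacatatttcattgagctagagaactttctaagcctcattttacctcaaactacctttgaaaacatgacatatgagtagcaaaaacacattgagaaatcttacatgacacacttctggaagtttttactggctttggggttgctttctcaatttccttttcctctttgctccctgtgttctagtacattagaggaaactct
Clec4e, chr6:123289822-123290121, minus strand: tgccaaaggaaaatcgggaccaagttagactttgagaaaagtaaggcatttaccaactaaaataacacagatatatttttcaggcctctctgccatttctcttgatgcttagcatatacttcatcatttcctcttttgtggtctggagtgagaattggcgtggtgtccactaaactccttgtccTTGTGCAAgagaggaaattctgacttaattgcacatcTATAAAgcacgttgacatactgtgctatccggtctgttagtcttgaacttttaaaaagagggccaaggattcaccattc
Mgl2, chr11:70130107-70130406, plus strand: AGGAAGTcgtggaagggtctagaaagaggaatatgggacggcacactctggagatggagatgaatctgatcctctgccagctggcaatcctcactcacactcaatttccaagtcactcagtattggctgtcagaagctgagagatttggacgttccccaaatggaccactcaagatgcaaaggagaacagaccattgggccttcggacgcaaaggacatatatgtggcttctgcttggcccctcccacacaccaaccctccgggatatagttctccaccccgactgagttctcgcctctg
The C/EBP motif was matched in 2 of the 7 members, those of Clec12a (TTGCGCAA) and, on the opposite strand, Clec4e (TTGTGCAA as printed), and in 10.8% of 32851 mouse promoter windows of the same length. A gene can have several windows, as Clec7a has 2, so these shares are over windows and the members' counts over genes. The TATA motif was matched in 4 of the 7 members, including Clec4e, and in 13.62% of all windows. Both counts take matches at any position, so they do not count TATA boxes in place. Relative to the start of transcription, the match began at -29 in Clec4e, -161 in Clec4a2 and -209 in Clec5a. In Clec7a it began at 42, in 1 of its 2 windows. The PU.1 motif was matched in the window of Mgl2 and in 9.351% of all windows. The Clec4d window held none of the 3 motifs. The RefSeq start of Clec12a lies inside the longer gene interval of the GENCODE annotation given further on. A match describes letters in the window and does not show binding.

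The deposited values were CPM, a gene's reads for every 1000000 reads assigned to listed genes, and whole reads could be recovered from them. The libraries held 5150020, 40149274 and 37604930 reads in replicates 1, 2 and 3, so replicate 1 is the shallowest and its low values are the least certain. Where no read was found, a level of up to 3 reads cannot be told from 0, which sets a limit of 0.583, 0.0747 and 0.0798 CPM in the 3 libraries in turn. Intervals and limits given here cover counting error only. Of the labelled cell type's markers, 6 of 18 macrophage genes were above 10 CPM and 9 below in the test explained next. Over all tested genes, 58.8% were above and 28.3% below. No macrophage marker was at 0 in all libraries. Of the genes of the gate, Siglec1 (CD169) was below at 0.388, 3.66 and 4.57 CPM in replicates 1, 2 and 3. Adgre1 (F4/80) was above at 18.6, 26.5 and 21.4 CPM. Highest of the macrophage markers were Vcam1 at 74.3 ± 19.3 CPM, Csf1r at 55.1 ± 13.8 and Cd68 at 44.7 ± 5.58 (SD, n = 3). All 16 neutrophil marker genes were above, and their summed level was 194828 to 230850 CPM, against 272 to 305 CPM for the macrophage markers. In a bulk sample fewer cells of a type and less RNA per cell cannot be told apart.

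With 1 group, each gene was set against a fixed level of 10 CPM. The limma test was run on log2(CPM + 1) over all genes with at least 10 reads, and calls were made at an adjusted p under 0.05. limma draws each gene's variance toward that of other tested genes of like level. Its SE and p therefore do not rest on a gene's own spread alone. All 9 members passed the read filter. Of them, 7 were above 10 CPM and 2 below, where 58.8% of 11123 tested genes were above and 28.3% below. The median of the 9 mean levels was 85.0 CPM, against 19.7 CPM over all listed genes. All 4 neutrophil-type members and both shared members were above, whereas of the 3 macrophage-type members Mgl2 was above and Clec4n and Clec10a were below.

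**Figure D1:**
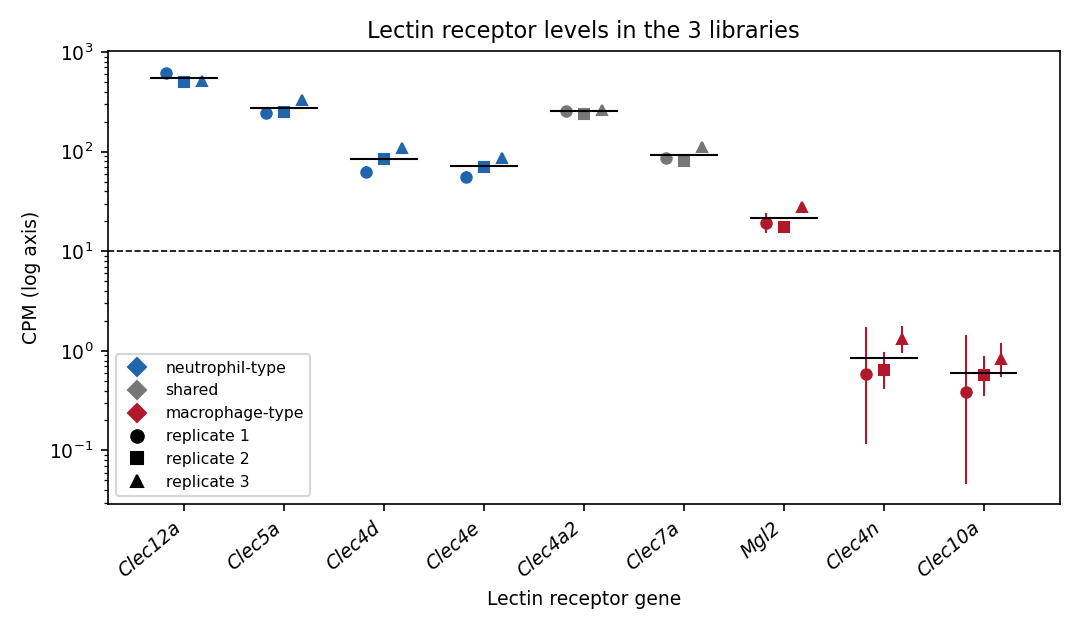
CPM of each lectin receptor gene (log axis) in replicates 1, 2 and 3 (circle, square, triangle), with 95% exact Poisson intervals as vertical lines, the mean as a horizontal bar and 10 CPM dashed. The 4 neutrophil-type and 2 shared members sit above the dashed line in every library, as does Mgl2, and Clec4n and Clec10a lie below it.

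Clec12a was the most abundant member. It encodes an inhibitory receptor for uric acid crystals from dead cells. It was at 618, 496 and 516 CPM in replicates 1, 2 and 3 (544 ± 65.5 CPM, SD, n = 3; log2 5.62 over 10 CPM, SE 0.11, limma adjusted p = 2.69e-22). Replicate 1 was the high library, with a 95% exact Poisson interval of 597 to 640 CPM that did not meet those of the other libraries. Its mean exceeded that of 98.3% of listed genes.

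Clec5a encodes an activating receptor that signals through DAP12 and binds dengue virus, and by CPM came next after Clec12a, whereas per kb of exon it stood below Clec4a2 too. It was at 247, 251 and 334 CPM in replicates 1, 2 and 3 (277 ± 49.1 CPM, SD, n = 3; log2 4.65 over 10 CPM, SE 0.11, limma adjusted p = 2.95e-20). Replicates 1 and 2 agree within counting error, with intervals of 233 to 261 and 246 to 256 CPM, and replicate 3 stood above both at 328 to 340 CPM.

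Clec4d and Clec4e encode partner receptors for the mycobacterial cord factor trehalose dimycolate that signal through FcRγ. Clec4d was at 62.7, 84.2 and 108 CPM in replicates 1, 2 and 3 (85.0 ± 22.8 CPM, SD, n = 3; log2 2.93 over 10 CPM, SE 0.14, limma adjusted p = 8.80e-15). Clec4e was at 55.9, 70.9 and 87.3 CPM in the same libraries (71.4 ± 15.7 CPM; log2 2.70, SE 0.14, limma adjusted p = 3.33e-14). Both were lowest in replicate 1 and highest in replicate 3, and the intervals of the 3 libraries did not overlap for either gene. Within a library there were 1.12, 1.19 and 1.24 reads of Clec4d for each read of Clec4e in replicates 1, 2 and 3, with exact intervals of 0.954 to 1.32, 1.13 to 1.248 and 1.18 to 1.30.

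The shared members were close to the neutrophil-type ones in level. Clec4a2, which encodes an inhibitory receptor, was at 258, 239 and 263 CPM in replicates 1, 2 and 3 (253 ± 12.7 CPM, SD, n = 3; log2 4.53 over 10 CPM, SE 0.11, limma adjusted p = 1.54e-20). Its spread was the smallest of the 9 members, with a coefficient of variation of 5.02%, against 12.05% to 47.2% for the others. Clec7a, the beta-glucan receptor of antifungal defence, was at 86.0, 80.3 and 110 CPM (92.2 ± 15.9 CPM; log2 3.07, SE 0.13, limma adjusted p = 6.26e-16), with replicate 3 the high library.

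Of the macrophage-type members, Mgl2 was detected well above the others. Mgl2 and Clec10a encode receptors for galactose and N-acetylgalactosamine and arose from a common gene. Mgl2 was at 19.2, 17.7 and 27.9 CPM in replicates 1, 2 and 3 (21.6 ± 5.49 CPM, SD, n = 3; log2 1.012 over 10 CPM, SE 0.18, limma adjusted p = 2.76e-05). This is near the median of all listed genes, since 51.9% had a lower mean, and against a level of 20 CPM Mgl2 was not called (log2 0.079, limma adjusted p = 0.689).

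Clec10a had 2, 23 and 31 reads in replicates 1, 2 and 3, or 0.388, 0.573 and 0.824 CPM (log2 -2.79 relative to 10 CPM, SE 0.35, limma adjusted p = 1.49e-07). Clec4n, which encodes a receptor for fungal mannans, had 3, 26 and 49 reads, or 0.583, 0.648 and 1.30 CPM (log2 -2.60, SE 0.34, limma adjusted p = 3.16e-07). In replicate 1 neither exceeded the 3 reads that a count of 0 allows. In edgeR on the recovered reads both calls held with larger adjusted p (0.0184 for Clec10a and 0.0146 for Clec4n). For each read of Clec10a there were 49.5, 30.9 and 33.8 reads of Mgl2 in replicates 1, 2 and 3, with exact intervals of 13.3 to 414, 20.4 to 49.0 and 23.7 to 50.01.

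Clec10a and Mgl2 share sequence, so the split of reads between them is uncertain to that extent. Of the 75-base stretches of Mgl2 transcripts, 6.56% also occur in Clec10a transcripts, and of those of Clec10a 4.44% occur in Mgl2. Clec4a2 shared 3.24% of its 75-base stretches with transcripts of Clec4a4 and Clec4b1, which were both at 0 CPM in all 3 libraries. The other 6 members shared none at this length. The read length was not given in the sources used here, and shorter stretches are shared more. At 50 bases Mgl2 shared 12.2% with Clec10a, and Clec10a 8.49% with Mgl2. With all other genes, Clec4a2 then shared 6.83%, Clec4n 0.686% and Clec12a 0.457%. Of the 9 genes, none has exons that overlap exons of another annotated gene on either strand. Clec7a is annotated as a polymorphic pseudogene in the GENCODE M21 set for GRCm38 and the other 8 as protein-coding.

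Taking the classes together, the neutrophil-type members summed to 983, 902 and 1046 CPM in replicates 1, 2 and 3, against 20.2, 18.9 and 30.0 CPM for the macrophage-type members. The neutrophil-type sum was thus 48.7, 47.7 and 34.9 times the macrophage-type sum. The lower ratio in replicate 3 went with the higher Mgl2 there, as Mgl2 made up 95.2%, 93.5% and 92.9% of the macrophage-type sum in replicates 1, 2 and 3. By class medians, the difference in log2(CPM + 1), neutrophil-type minus macrophage-type, was 6.31, 6.47 and 6.38 (6.39 ± 0.08, SD, n = 3). The macrophage-type median is the level of Clec4n alone, at 0.583, 0.648 and 1.30 CPM in replicates 1, 2 and 3. These levels are near the pseudocount of 1 CPM, so the size and spread of the difference depend on it. With a pseudocount of 0.1 CPM the difference was 7.40 ± 0.28. The members of each class were picked with earlier results of these data known, so no test is given for this difference. At a pseudocount of 1 CPM, the class difference was 2.78 ± 0.17 with Clec7a and Clec4a2 counted as macrophage-type. With Clec4d and Clec4e so counted it was 4.12 ± 0.24.

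As shares of all lectin receptor CPM, the neutrophil-type members took 73.0%, 72.8% and 72.2% in replicates 1, 2 and 3, the shared members 25.5%, 25.7% and 25.7%, and the macrophage-type members 1.499%, 1.52% and 2.07%. The neutrophil-type share thus stayed within 72.2% to 73.0%, while that of Clec12a alone, its largest part, was 45.9% in replicate 1 and 35.6% in replicate 3, with replicate 2 between them. The 9 genes together took 0.135%, 0.124% and 0.145% of all reads.

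**Figure D2:**
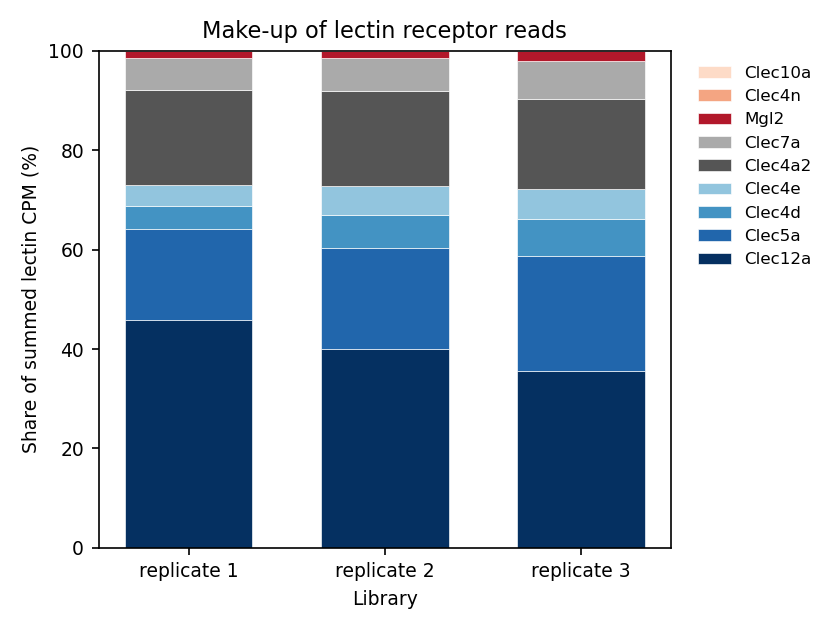
Share of the summed CPM of the 9 lectin receptor genes taken by each gene (percent, stacked) in replicates 1, 2 and 3, with blue for neutrophil-type, grey for shared and red for macrophage-type members. Clec12a takes the largest share, 45.9% in replicate 1 and 35.6% in replicate 3, and the red band is 1.499% to 2.07%.

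Levels of different genes compare only per length. Per kb of exon, the order of mean levels was Clec12a (98.3 CPM per kb), Clec4a2 (86.5), Clec5a (72.2), Clec4d (53.2), Clec7a (34.9), Clec4e (14.4), Mgl2 (10.3), Clec4n (0.595) and Clec10a (0.205). The difference between neighbours in this order, as log2 of (CPM + 1) per kb within a library, was larger than its SD over libraries in 8 of 8 pairs. It was least for Clec12a over Clec4a2 (0.18 ± 0.15) and Clec4a2 over Clec5a (0.27 ± 0.21), and largest for Mgl2 over Clec4n (3.05 ± 0.09, SD, n = 3). The exact two-sided sign-flip permutation p was 0.25 for each pair, the smallest that 3 libraries allow, and 0.25 after adjustment over 8 pairs, so no pair passed. The order was itself taken from these means, which fixes their sign.

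The order depends on the length used where exons outside the coding part are long. Clec4e has 4.965 kb of exon and 0.642 kb of coding sequence. Per kb of coding sequence Clec4e came to 111 CPM, against 18.9 for Mgl2. On that scale Clec5a (486 CPM per coding kb) stood over Clec4a2 (322), the reverse of their order per kb of exon. Per kb of exon, the level of Clec4d was 3.48, 3.69 and 3.85 times that of Clec4e in replicates 1, 2 and 3, although their reads were nearly equal. Clec4n over Clec10a rested on 3 and 2 reads in replicate 1.

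**Figure D3:**
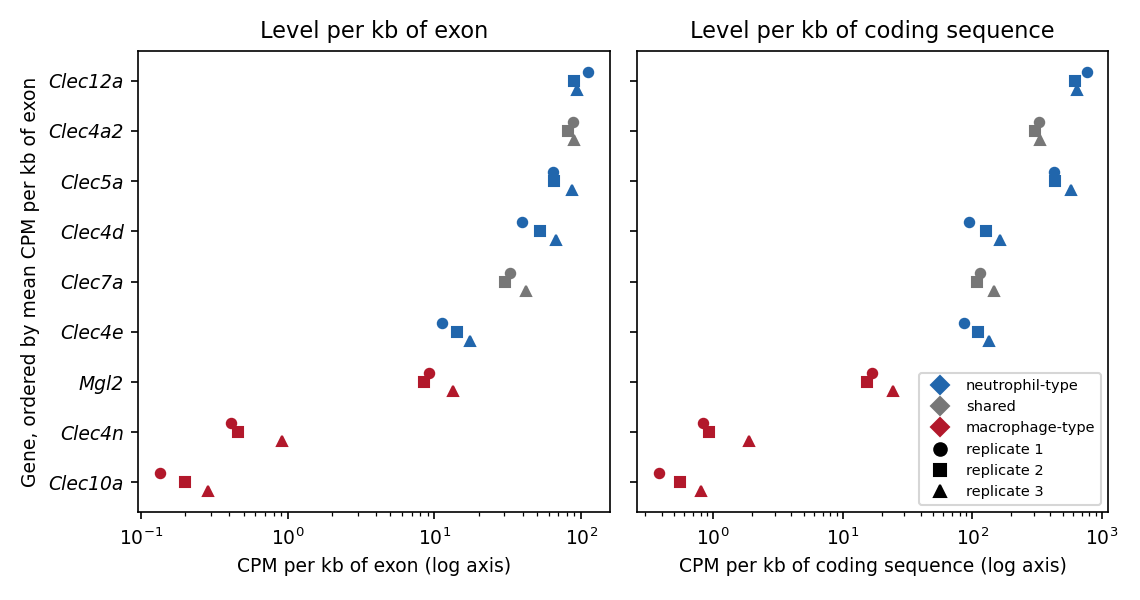
CPM per kb of exon (left) and per kb of coding sequence (right, both on log axes) of the 9 lectin receptor genes in replicates 1, 2 and 3 (circle, square, triangle), coloured by class. Clec12a leads on both scales at means of 98.3 and 679, and Clec4a2 and Clec5a change places between them.

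In the genome, 4 members lie within 183 kb of GRCm38 chromosome 6, in the order Clec4a2 (123106428 to 123143999, plus strand, ENSMUSG00000030148), Clec4n (123229843 to 123247021, plus strand, ENSMUSG00000023349), Clec4d (123262111 to 123275265, plus strand, ENSMUSG00000030144) and Clec4e (123281789 to 123289870, minus strand, ENSMUSG00000030142). Neighbours there differed widely in level. Clec4n lies 15.1 kb before Clec4d, and the CPM of Clec4d was 108, 130 and 83.0 times that of Clec4n in replicates 1, 2 and 3 (exact intervals 36.5 to 525, 88.6 to 199 and 62.7 to 112). Clec4b2, the other protein-coding gene of this stretch, was at 3.30, 10.09 and 8.06 CPM and was not called against 10 CPM. Clec4d and Clec4e are 6.52 kb apart on opposite strands.

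A second group on chromosome 6 starts with Clec12a (129342691 to 129365303, plus strand, ENSMUSG00000053063) and ends 130 kb on with Clec7a (129461591 to 129472779, minus strand, ENSMUSG00000079293). Between them lie Clec1b and Clec9a, both below 10 CPM at 2.73 ± 2.26 and 1.17 ± 0.617 CPM (SD, n = 3), and Clec12b and Clec1a, which were not listed in the files. Clec1b encodes a platelet receptor and Clec9a a receptor of dendritic cells for dead cells. Clec5a lies apart on the same chromosome (40574894 to 40585821, minus strand, ENSMUSG00000029915). Mgl2 (70130329 to 70137550, plus strand, ENSMUSG00000040950) and Clec10a (70156197 to 70170834, plus strand, ENSMUSG00000000318) lie 18.6 kb apart on chromosome 11. All intervals span whole genes.

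**Figure D4:**
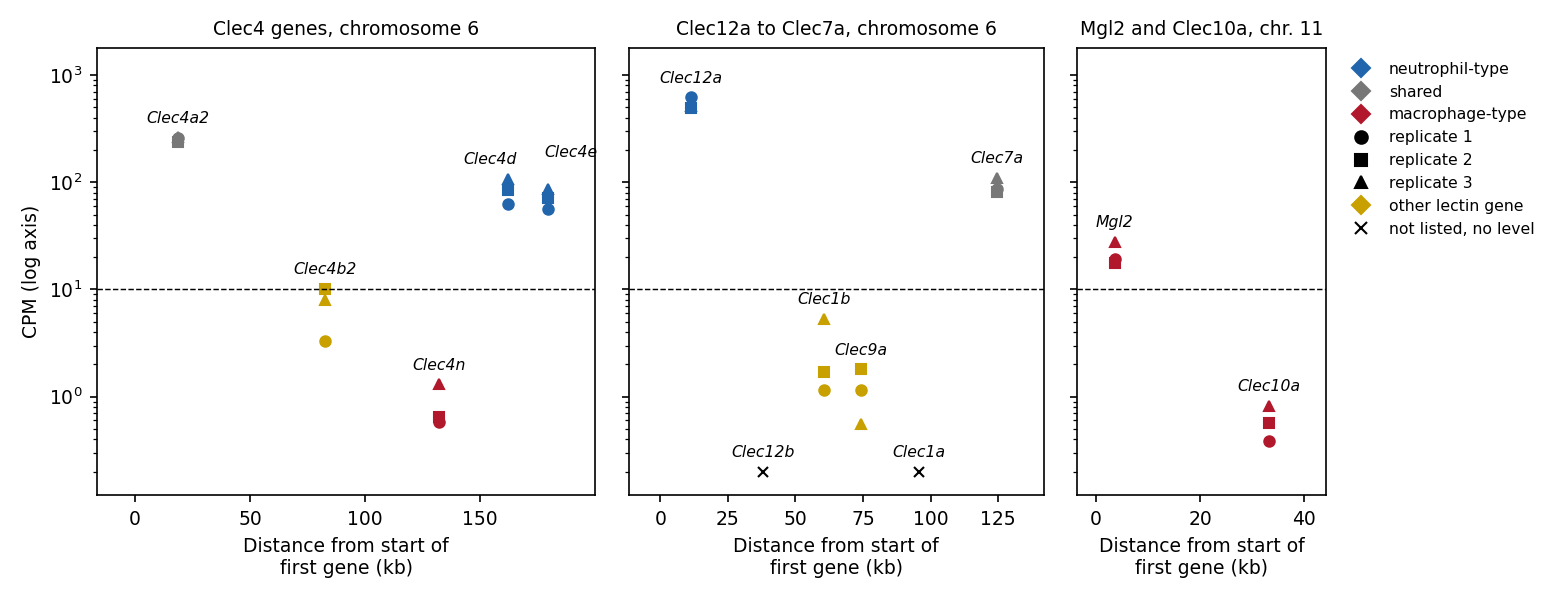
CPM (log axis) of protein-coding lectin genes, and of Clec7a, by distance in kb from the start of the first gene of each group, for 2 groups on chromosome 6 and 1 on chromosome 11, in replicates 1, 2 and 3 (circle, square, triangle). Clec4n at 0.583 to 1.30 CPM lies next to Clec4d at 62.7 to 108 CPM, and crosses mark 2 genes with no listed level.

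Across libraries, 8 of 9 members were highest in replicate 3, the exception being Clec12a in replicate 1, while 48.2% of the 11123 tested genes were highest in replicate 3. After TMM scaling 7 of 9 members were highest there, against 35.6% of tested genes, Clec4a2 and Clec12a being higher in replicate 1. In replicate 3 the summed level of the 16 neutrophil markers was 194828 CPM, against 230850 in replicate 1 and 230750 in replicate 2. The 8 eosinophil markers summed to 563, 936 and 1366 CPM in replicates 1, 2 and 3, the same order as Clec4d and Clec4e, and the 7 listed dendritic markers to 85.4, 70.5 and 71.8 CPM. The 6 listed basophil markers summed to 1522, 743 and 812 CPM, of which Hdc made up 552, 609 and 675 CPM. The 18 macrophage markers summed to 305, 272 and 294 CPM. The 10 monocyte markers summed to 1201, 1078 and 974 CPM, of which Ly6c2 made up 1141, 1017 and 932 CPM. Of these markers 2 were above 10 CPM, 4 below and 3 not called, where 58.8% of all tested genes were above and 28.3% below. Of the listed markers of these cell types, Vcan, a monocyte marker, was at 0 in all libraries, and no other was. The part of these cells in the lectin levels was not tested.

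Of the adaptors through which the activating receptors signal, 3 of 3 were above 10 CPM, where 58.8% of all tested genes were above, and their median was 742 CPM, against 19.7 CPM over all genes. Tyrobp, which encodes DAP12, the chain used by Clec5a, was at 1128, 1210 and 934 CPM in replicates 1, 2 and 3. Fcer1g, which encodes FcRγ, the chain used by Clec4d, Clec4e and Clec4n, was at 775, 754 and 698 CPM, and Hcst, which encodes DAP10, at 72.4, 78.4 and 49.5 CPM. By CPM all 3 were lowest in replicate 3, and the share of all tested genes lowest there was not counted.

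Of 15 genes of proximal signalling, 14 were above 10 CPM and 1 below, with a median of 229 CPM, against 58.8% above and a median of 19.7 CPM over all genes. Highest were Fgr, a SRC family kinase, at 572 ± 38.2 CPM, Syk at 535 ± 82.1 and Plcg2, a phospholipase downstream of SYK, at 490 ± 55.2 (SD, n = 3). The complex that passes the signal to NF-kB, chosen for its role after values were seen, was at 185 ± 12.4 CPM for Card9, 77.5 ± 14.7 for Bcl10 and 39.0 ± 10.3 for Malt1. Src itself was at 0, 0.249 and 0 CPM in replicates 1, 2 and 3, below 10 CPM in limma (adjusted p = 3.29e-08), whereas edgeR gave an adjusted p of 0.0655. A list of inhibitory phosphatase genes, wider than the Ptpn6 and Ptpn11 of the inhibitory receptors, was above in 5 of 5 cases. Its median was 97.9 CPM, and the highest were Ptpn6 at 730 ± 60.3 CPM, Inpp5d at 248 ± 48.3 and Ptpn11 at 97.9 ± 11.8.

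Genes of reported endogenous ligands were above 10 CPM in 5 of 5 listed cases, where 58.8% of all tested genes were above, and Anxa13 was not listed. Their median was 206 CPM, against 19.7 CPM over all genes. Anxa1 and Vim, whose proteins have been described as ligands of Dectin-1, were at 3156 ± 217 and 1116 ± 74.9 CPM, and Lgals9, which encodes galectin-9, another such ligand, at 206 ± 16.8. Sf3b3, which encodes the spliceosome protein that Mincle binds on dead cells, was at 95.2 ± 20.2 CPM (SD, n = 3), a gene named for its role.

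Of 16 genes that these receptors are known to induce, 7 were not listed (among them Il6, Il10 and Cxcl2), and Egr2 was at 0 in all libraries. Of the 8 tested, 4 were above and 3 below, and Ccl3 was not called. With so few genes this is near the 58.8% above and 28.3% below over all tested genes, and the median of the 9 listed genes, 15.6 CPM, was near the 19.7 CPM of all. Nfatc1 was at 121 ± 28.5 CPM, Il1b at 50.9 ± 13.9, Tnf at 31.3 ± 3.72 and, to complete the count, Nlrp3 at 27.0 ± 7.55 (SD, n = 3). Below were Il1a at 0.367 ± 0.390, Ccl4 at 2.27 ± 2.83 and Ptgs2 at 4.70 ± 5.34 CPM, and edgeR on recovered reads called none of these 3 (adjusted p = 0.0655, 0.0577 and 0.0502).

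**Figure D5:**
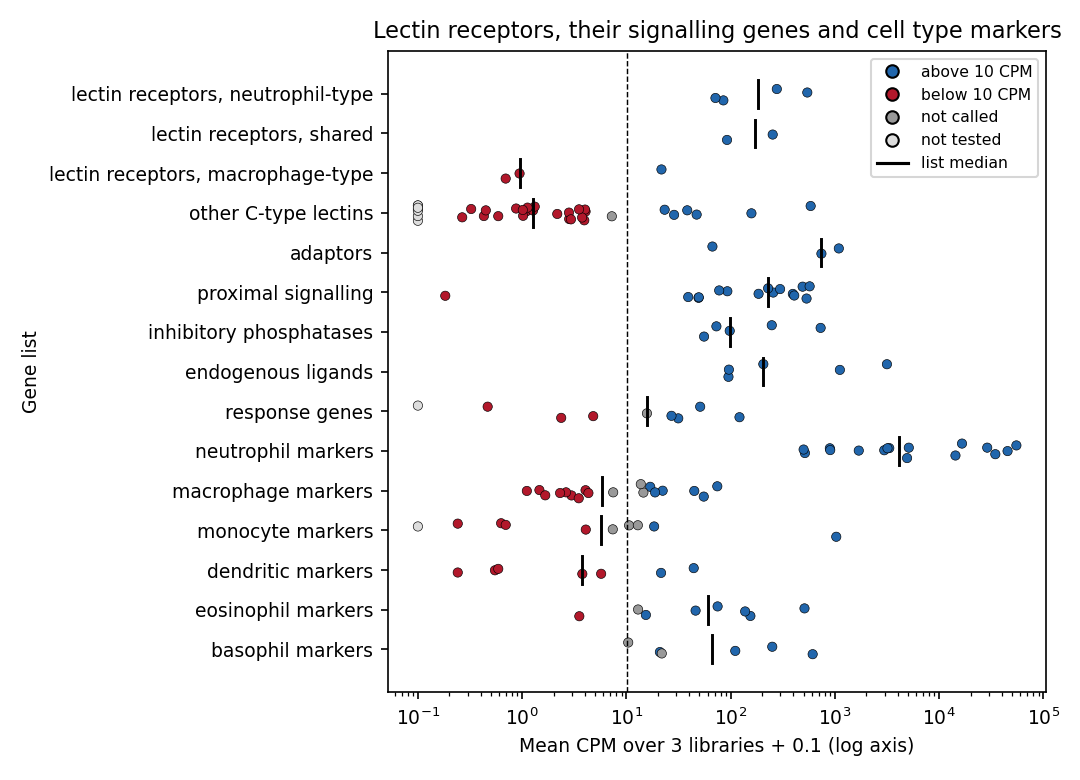
Mean CPM over 3 libraries plus 0.1 (log axis) of each listed gene, by gene list, coloured by its limma call against 10 CPM, with the list median as a black bar and 10 CPM dashed. Adaptors, phosphatases and ligand genes all lie right of the dashed line, and 21 of 28 tested other C-type lectin genes were called below it.

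Other genes with C-type lectin domains, or named with them, were mostly low. Of 61, 26 were not listed and 7 were at 0 in all libraries. Of the 28 tested, 6 were above 10 CPM (21.4%) and 21 below, where 58.8% of all tested genes were above and 28.3% below. Of the receptors 7 of 9 were above, but members and lists were chosen with earlier results of these data known. Among those above were Ly75, an endocytic receptor, at 158 ± 33.9 CPM, Clec2d at 47.1 ± 10.3 and, named after their values were seen, Olr1 at 38.2 ± 14.5, Cd93 at 28.6 ± 6.88 and Clec16a at 23.2 ± 3.36 (SD, n = 3). Lowest among those below were Klrd1, a natural killer cell receptor, with reads in replicate 2 alone (0.498 CPM), and Fcer2a, the low-affinity IgE receptor, likewise (0.672 CPM). Mrc1, the mannose receptor of macrophages, was below at 2.72, 5.80 and 3.35 CPM.

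Among 134 listed genes of the other lists, the closest to Clec12a in level over the 3 libraries was Ly6g, a neutrophil surface antigen (514, 575 and 457 CPM, a Euclidean distance of 0.38 in log2(CPM + 1)). Closest to Mgl2 were H2-Ab1, a class II chain (21.0, 19.4 and 23.8 CPM, distance 0.28), and Clec16a (distance 0.36). With 3 libraries this likeness is mostly one of mean level.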

How the data were processed

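Messenger RNA of 1 sorted marrow population was measured in 3 libraries, which the labels place in 1 group with replicate numbers. Per the labels' protocols, cells were sorted into Trizol, NEXTflex mRNA libraries were prepared, and a NextSeq500 was used for sequencing. The authors deposited CPM per gene and library. The submitters' processing notes name FastQC, STAR, featureCounts and edgeR and the builds mm10 and GRCh38; versions, the annotation, the strand setting and the gene filter are not given in the sources used here. If counting ignored strand, reads of overlapping antisense genes would be included.

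Each file held 11463 entries; 44 repeated a gene with identical values, leaving 11419 genes whose CPM summed to 1000000. Dividing by the CPM worth of a single read gave whole reads within 0.01 for 100% of values in each library, and these are the recovered reads. At 10 CPM a gene had 51.5, 401 and 376 reads in replicates 1, 2 and 3.

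limma 3.58.1 in R 4.3.3 fitted an intercept to log2(CPM + 1), with 1 as pseudocount, and tested it, two-sided and with a variance trend, against 10 CPM on that scale, with Benjamini-Hochberg adjustment over 11123 genes. A difference on this scale understates that of low genes. edgeR 4.0.16 and DESeq2 1.42.0 on recovered reads were alternatives, calling 6660 and 6558 genes above 10 CPM where limma called 6539; edgeR's quasi-likelihood F test was written out for a fit with an intercept alone. All were tested on simulated data. Other alternatives were another pseudocount, no read filter, levels of 5 and 20 CPM, TMM and DESeq2 size factors, no variance trend, other lengths and classes, and leaving out each library. Exon and coding lengths and coordinates came from GENCODE M21 on GRCm38, the assembly of mm10, and promoters from RefSeq.

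Genes named are the 9 members; in each other list the 3 highest means of genes called above and the 2 lowest means of genes called below, or fewer where fewer were called; and the 2 list genes closest to the highest neutrophil-type and macrophage-type member. Others are said to be chosen for role or place. Of the genes this rule takes, 1 is left out of the text. Members, classes and lists were chosen with earlier results of these data known.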

Additional observations from a re-analysis of the deposited data

How the results depend on the processing

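Over 12 alternative settings, the 9 members gave 108 results, of which 107 kept their direction and side of the threshold; the exception was Mgl2 against 20 CPM. Accordingly 6 members were above 20 CPM and 7 were above under each other setting, and 2 were below under every one. Without each library in turn, the counts stayed at 7 and 2 members, and 5884 to 6537 genes were above and 2423 to 3109 below 10 CPM. Against 5 CPM, 1870 genes were below, where 3153 were below 10 CPM. The class difference of 6.39 was 7.40 with a pseudocount of 0.1 CPM, 5.29 per kb of exon, 5.37 from summed CPM 2.78 with Clec7a and Clec4a2 as macrophage-type, 4.12 with Clec4d and Clec4e so placed, an alternative chosen after seeing the data, and 6.34 to 6.43 without each library in turn. Clec4a2 minus Clec5a, 0.27 per kb of exon, was -0.58 per kb of coding sequence, by the lengths alone. Not called at 10 CPM, Ccl3 (log2 -0.59) was at 0.28 relative to 5 CPM, 0.51 in edgeR, 0.65 in DESeq2 and 0.41 without replicate 3, and at -1.87 without replicate 1 it was called below; Clec4b2 was at 0.33 relative to 5 CPM, and Treml4, a monocyte marker above 10 CPM, at -0.14 relative to 20 CPM. The cause was not tested beyond the change of level. No paired analysis was possible because the series has 1 group. Depth limits Clec4n and Clec10a, with 3 and 2 reads in replicate 1.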

Other observations

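Some response genes of myeloid cells varied widely between the libraries. Ccl3, a chemokine gene, was at 42.1, 3.96 and 0.824 CPM in replicates 1, 2 and 3, Ccl4 at 5.44, 1.37 and 0 CPM, and Ptgs2, which encodes an inducible cyclooxygenase, at 10.9, 1.69 and 1.54 CPM. All 3 were highest in replicate 1. Il1b was at 35.7, 53.9 and 63.1 CPM and Nlrp3 at 18.8, 28.3 and 33.7 CPM, both lowest in replicate 1 and highest in replicate 3, the order of Clec4d and Clec4e. The basophil proteases Prss34 (596, 74.5 and 81.2 CPM) and Mcpt8 (259, 35.4 and 37.4 CPM) were also highest in replicate 1, and their part in the chemokine values was not tested. These genes were picked for this description after their values were seen.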
